A study of Mus musculus with 4 samples.

Results

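Cholesterol is made in cells from acetyl-CoA through the mevalonate and sterol steps, and the enzymes of both are switched on together by the transcription factor SREBP2 when membrane sterol falls. When sterol is in excess, its oxidised forms activate the liver X receptors (LXRs), which switch on genes that export cholesterol or restrict its uptake. In immune cells the first programme is known to accompany growth and division, and the second is prominent in macrophages that clear dead cells. The 31 genes described here cover both sides of this balance and were chosen by name, for their place in these pathways, from the 32285 genes of the single-cell count tables, with earlier results of these data known. They hold 20 synthesis genes, which are 7 enzymes of the mevalonate steps, 11 enzymes of the sterol steps, the sterol carrier Stard4 and the SREBP2 target Insig1. A further 4 genes regulate them (Srebf1, Srebf2, Scap, Insig2), and 7 belong to the efflux side: the receptors Nr1h2 and Nr1h3, the exporters Abca1 and Abcg1, the ubiquitin ligase Mylip that restricts sterol uptake, the lipid carrier Apoe and the phospholipid-remodelling enzyme Lpcat3.

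The cells came from lymph nodes of wild-type C57BL/6 mice, with no enrichment for a cell type. EV mice had received 100 µg of extracellular vesicles (EVs) from induced pluripotent stem cells under the skin, and there were 2 libraries of EV mice and 2 of Control mice. The study's methods describe the controls as injected with PBS and the harvest of draining nodes as on day 5, whereas the sample labels call the controls untreated and give a duration of 24 hours; both are stated here because the files cannot settle it. Sex and age are not given in the sources used here. The comparison asks whether the vesicles move sterol synthesis and sterol efflux in lymph node lymphocytes and macrophages.

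The 4 tables held 8361 to 9000 barcodes and 50749656 to 70418672 UMIs (counted RNA molecules) each, of which 7891 to 8529 cells passed the limits, with a median of 5502 to 6639 UMIs per cell. Any pair of libraries shared only 12 to 26 barcodes. Cells were gated on a few transcripts: 14686 B cells (Cd79a, no Cd3e), 5197 CD4 T cells, 5901 CD8 T cells and 280 cells of a macrophage gate (at least 2 UMIs of C1qa and C1qb, no Cd3e). UMIs were summed per library and gate and are given as CPM, each gene's UMIs scaled to the same total per library and gate. Several facts moved with treatment in all of the gates: 7 summed heat shock transcripts were at 1453 and 1651 CPM in Control B cells and 2588 and 2779 CPM in EV B cells, and a list of 6 nuclear and rRNA-like transcripts was at 13620 and 13819 CPM against 8200 and 1566 CPM. Their part in the results was not tested. B cell markers summed to 8991 to 9621 CPM in the B gate. They summed to 10.3 to 20.1 CPM in the CD4 gate and 24.7 to 29.8 CPM in the CD8 gate. Cd79a is among these markers and defines the gates, so this contrast is partly set by the gating. A stricter gate dropped T cells with a UMI of Cd79b, Ms4a1, C1qa or C1qb. It kept 1324 of 1383, 1556 of 1624, 844 of 923 and 1190 of 1267 CD4 T cells in Control 1, Control 2, EV 1 and EV 2. For CD8 T cells it kept 1449 of 1682, 1575 of 1861, 833 of 1003 and 1119 of 1355. Cells of the macrophage gate had a median of only 1100 to 1456 UMIs and carried 2164 to 4320 CPM of B cell markers. Cells counted in both the B cell and macrophage gates numbered 5, 10, 20 and 16 in Control 1, Control 2, EV 1 and EV 2.

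Short sequences in front of start sites are among the places where SREBP2 and the LXRs can bind. RefSeq promoters (build GRCm38.p6, 250 bases before to 50 after each start) were matched for 26 of the 31 genes, in 37 windows, and 5 genes (Abcg1, Fdft1, Fdps, Sqle, Stard4) had no entry. Each window was searched on both strands for the sterol regulatory element of SREBP (TCACNCCAC), the CCAAT box (CCAAT) of the factor NF-Y that works beside SREBP, and the LXR element (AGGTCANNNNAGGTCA). The CCAAT box was in 15 of the 19 synthesis windows (78.9%), in 4 of 9 regulator windows (44.4%) and in 2 of 9 efflux windows (22.2%), against 37.4% of all 32851 promoter windows. The sterol element was in the window of Hmgcs1 alone, where its first base lies at -137 from the start, and in 1.24% of all windows. The exact LXR element was in none of the 37 windows and in only 5 of all. This search allowed no mismatch, so a window without a match may still hold an LXR site. The 250 bases upstream of 3 genes are printed 5′ to 3′ on the gene's strand, with the sterol element and each CCAAT box (ATTGG on the other strand) in capitals. Ebp, the sterol isomerase with the highest CPM among the synthesis genes in B cells (3′ end counts, not scaled by length), was at chrX:8193513-8193762, minus strand. Hmgcs1, which makes the HMG-CoA that feeds mevalonate synthesis, was at chr13:119690101-119690350, plus strand, and was added because it holds the sterol element. Abca1, the exporter on which the results below turn, was at chr4:53159896-53160145, minus strand. It has no exact match to the sterol element or the CCAAT box there, and inexact LXR elements were not searched for.
Ebp: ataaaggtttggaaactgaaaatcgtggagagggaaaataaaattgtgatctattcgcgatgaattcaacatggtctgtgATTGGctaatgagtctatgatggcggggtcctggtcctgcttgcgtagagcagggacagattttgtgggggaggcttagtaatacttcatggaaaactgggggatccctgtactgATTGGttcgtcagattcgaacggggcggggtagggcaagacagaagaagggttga
Hmgcs1: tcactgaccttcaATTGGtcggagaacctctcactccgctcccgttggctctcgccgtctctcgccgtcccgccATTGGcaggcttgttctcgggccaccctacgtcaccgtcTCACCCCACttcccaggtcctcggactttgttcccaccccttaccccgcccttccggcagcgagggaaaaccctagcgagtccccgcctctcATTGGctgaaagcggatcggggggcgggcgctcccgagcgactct
Abca1: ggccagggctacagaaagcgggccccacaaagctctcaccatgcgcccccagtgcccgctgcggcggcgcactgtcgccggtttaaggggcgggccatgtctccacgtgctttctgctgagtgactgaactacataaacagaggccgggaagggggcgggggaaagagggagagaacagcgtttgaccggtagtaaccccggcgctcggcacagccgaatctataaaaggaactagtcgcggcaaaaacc

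No synthesis gene passed the test for a change with EV treatment in B, CD4 T or CD8 T cells. All 20 were tested in each of these gates, and the lowest adjusted p (edgeR's quasi-likelihood test, Benjamini-Hochberg over all genes of the gate) was 0.206 in B cells, 0.117 in CD4 T cells and 0.119 in CD8 T cells. The summed level of the 20 genes was 214 and 223 CPM in Control B cells and 220.0 and 224 CPM in EV B cells (95% Poisson limits, which cover counting error only, from 206 to 231 CPM across the 4 libraries). In CD4 T cells the sum was 252 and 229 CPM in the Controls, against 242 and 228 CPM in EV. In CD8 T cells it was 206 and 193 CPM in Control, with EV at 184 and 192 CPM, so that EV 2 lay just under Control 2.

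**Figure D1:**
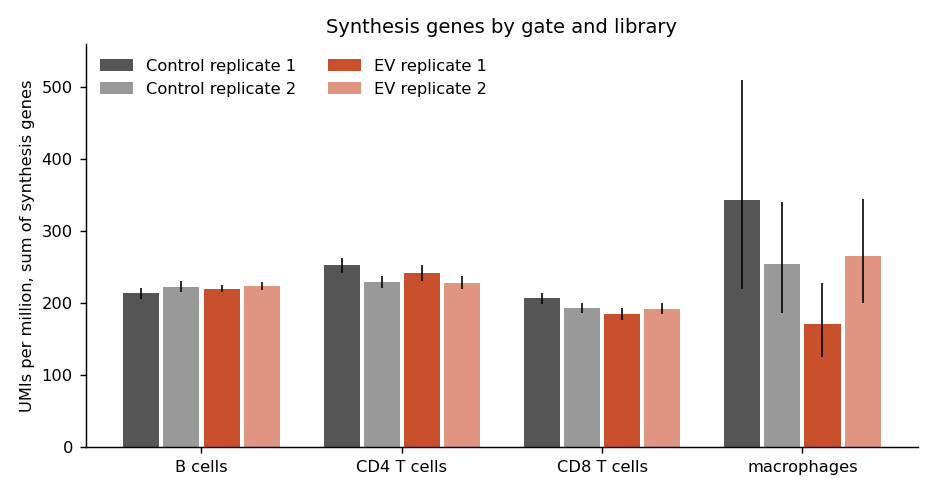
Summed level of the 20 synthesis genes (CPM, unscaled) in each library of the 4 gates, with 95% Poisson intervals for counting error. EV and Control bars stand close together in the lymphocyte gates, and the macrophage bars rest on 24 to 56 UMIs each.

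The signs of the single genes were evenly split in B cells and mostly below 0 in T cells, a difference between gates that was not tested over the list. The median log2 fold change (EV over Control) of the synthesis genes was -0.01 in B cells, with 9 genes above 0 and 11 below. It was -0.10 in CD4 T cells, with 6 above and 14 below, and -0.16 in CD8 T cells, with 4 above and 16 below. The median of all genes tested was -0.0016, 0.00072 and 0.00033 in the same order. The standard errors of single synthesis genes ran from 0.099 to 0.38.

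Ebp, which moves a double bond in the sterol ring, was the synthesis gene that stood above the Controls in all 3 lymphocyte gates. It was at 27.3 and 29.3 CPM in Control B cells and at 35.8 and 32.0 CPM in EV B cells (log2 fold change 0.26, SE 0.10, edgeR adjusted p = 0.206). In CD4 T cells it was at 35.9 and 36.2 CPM in the Controls, against 49.0 and 44.2 CPM in EV (0.37, SE 0.10, adjusted p = 0.117). In CD8 T cells it was at 33.3 and 36.8 CPM in Control, with EV at 47.6 and 40.8 CPM (0.33, SE 0.10, adjusted p = 0.119). The 2 EV libraries lay above both Controls in each gate, but the change passed the threshold in none.

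The other synthesis genes of highest level had smaller differences, none past the threshold. Pmvk, the phosphomevalonate kinase, was at 21.7 and 19.7 CPM in Control B cells and 23.0 and 24.0 CPM in EV B cells (0.18, SE 0.10, edgeR adjusted p = 0.365). Sc5d, a sterol desaturase, was at 16.0 and 16.6 CPM in Control B cells and 17.8 and 17.1 CPM in EV B cells (0.10, SE 0.10, adjusted p = 0.637). In CD4 T cells Sc5d was at 21.8 and 20.2 CPM in the Controls, against 19.2 and 19.2 CPM in EV (-0.12, SE 0.12, adjusted p = 0.642), the opposite side of 0. Fdps, the farnesyl diphosphate synthase at the branch between sterols and isoprenoids, shares exon sequence on its strand with Gm43738, so its counts are uncertain. It was at 22.1 and 21.8 CPM in Control CD4 T cells and at 20.9 and 21.8 CPM in EV CD4 T cells (-0.04, SE 0.12, adjusted p = 0.892). Fdps in CD8 T cells was at 15.6 and 17.5 CPM in Control, with EV at 15.2 and 16.7 CPM (-0.05, SE 0.13, adjusted p = 0.872), overlapping groups. Hmgcs1 was at 17.4 and 16.3 CPM in Control CD8 T cells and 14.8 and 15.6 CPM in EV CD8 T cells (-0.15, SE 0.12, adjusted p = 0.557).

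A few synthesis genes and a regulator lay lower in EV T cells without reaching the threshold, and these were picked out after their values were seen. Insig1, an ER protein that holds SREBP back and is itself an SREBP target, was at 10.7 and 9.76 CPM in Control CD4 T cells and 6.36 and 7.32 CPM in EV CD4 T cells (-0.57, SE 0.19, edgeR adjusted p = 0.172). Sqle, the squalene epoxidase, was at 7.44 and 5.86 CPM in Control CD4 T cells and 4.84 and 3.36 CPM in EV (-0.70, SE 0.28, adjusted p = 0.237). Fdft1, the squalene synthase, was at 8.25 and 8.64 CPM in Control CD8 T cells and 5.41 and 6.19 CPM in EV (-0.54, SE 0.18, adjusted p = 0.144). Pmvk, higher in EV B cells, lay lower in EV CD8 T cells, with an unadjusted p under 0.05 (edgeR) and no call. In a joint scaling of the CD4 and CD8 gates it was at 10.2 and 10.1 CPM in Control CD8 T cells, against 8.07 and 7.31 CPM in EV. In CD4 T cells it was at 9.42 and 9.18 CPM against 8.70 and 7.34 CPM. Srebf2, which encodes SREBP2 itself, was at 64.1 and 55.8 CPM in Control CD8 T cells and 47.3 and 48.1 CPM in EV (-0.33, SE 0.09, adjusted p = 0.0905), at 76.2 and 70.1 CPM against 61.9 and 63.5 CPM in CD4 T cells (-0.22, adjusted p = 0.271), and overlapped between groups in B cells, at 120.5 and 116 CPM against 106 and 125 CPM. None of the 4 regulators passed the test in any lymphocyte gate, and the lowest adjusted p among them was this Srebf2 value of 0.0905.

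On the efflux side, Abca1, the transporter that loads cholesterol onto apolipoprotein A-I, was the only gene called with EV treatment in the lymphocyte gates. Whether it changed more than the other efflux genes was not tested. In CD4 T cells Abca1 was at 15.1 and 20.5 CPM in the Controls, against 10.3 and 8.21 CPM in EV, from 136, 242, 81 and 83 UMIs. Both EV libraries lay below both Controls, and the level fell by 0.97 on the log2 scale (SE 0.19, edgeR adjusted p = 0.0385). In CD8 T cells it was at 22.0 and 25.5 CPM in Control, with EV at 17.8 and 13.8 CPM, again without overlap, a fall of 0.60 on the log2 scale (log2 fold change -0.60, SE 0.14, adjusted p = 0.0446). These were the only calls among the 31 genes tested in CD4 T cells and the 30 tested in CD8 T cells, where 1.09% and 2.2% of all genes were called. No member was called in B cells, where 2.55% of all 13270 genes were, with 2 members at an unadjusted p under 0.05 and none called by DESeq2. In CD4 T cells 3 synthesis genes, 1 regulator and 4 efflux genes had an unadjusted p under 0.05 (edgeR). The counts in CD8 T cells were 3, 1 and 5 in the same order. The shares of all genes at that unadjusted p are not given here.

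The Abca1 calls rest on few libraries and did not survive all settings. Without Control 2, the adjusted p was 0.175 in CD4 T cells (log2 fold change -0.71) and 0.139 in CD8 T cells (-0.48), while leaving out any of the other libraries kept both calls. DESeq2 gave adjusted p = 0.0627 in CD4 T cells and 0.131 in CD8 T cells. The CD8 T cell call was also lost with thinned cells (adjusted p = 0.119), other cell limits (0.0837) and stricter gates (0.0558), all of which kept the CD4 T cell call. The share of CD4 T cells with an Abca1 UMI was 8.60% and 11.5% in Control and 7.37% and 5.68% in EV; with every cell thinned to 1000 UMIs, since EV cells were deeper, it was 1.66% and 1.91% against 0.433% and 0.710%. In CD8 T cells it was 13.3% and 17.6% in Control and 14.8% and 10.9% in EV, and 2.26% and 2.53% against 0.897% and 1.40% after thinning. B cells, in which the gene is plentiful, had 40.1% and 44.1% of Control cells and 47.9% and 39.8% of EV cells with a UMI, at 12.6% and 13.1% against 12.1% and 9.52% after thinning.

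In B cells Abca1 was at 137 and 142 CPM in the Controls, against 138 and 107 CPM in EV (-0.19, SE 0.12, edgeR adjusted p = 0.432), so the groups overlapped through EV 1 on this scale; before scaling EV 1 was at 134.8 CPM, below both Controls at 139.3 and 143.6 CPM. Without EV 1 it was called (-0.38, adjusted p = 0.000256). The EV effect on Abca1 was tested between gates directly: it was 0.75 higher in B cells than in CD4 T cells on the log2 scale (SE 0.15, edgeR adjusted p = 0.0220), the only member called of 31, where 1.79% of all genes were called. Without Control 2 this difference was 0.52 (adjusted p = 0.239). Between CD8 and CD4 T cells the EV effect on Abca1 differed by 0.36 (SE 0.16, adjusted p = 0.590), and no member was called in that comparison, where 0.377% of all genes were, 1 member had an unadjusted p under 0.05 and DESeq2 called none.

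**Figure D2:**
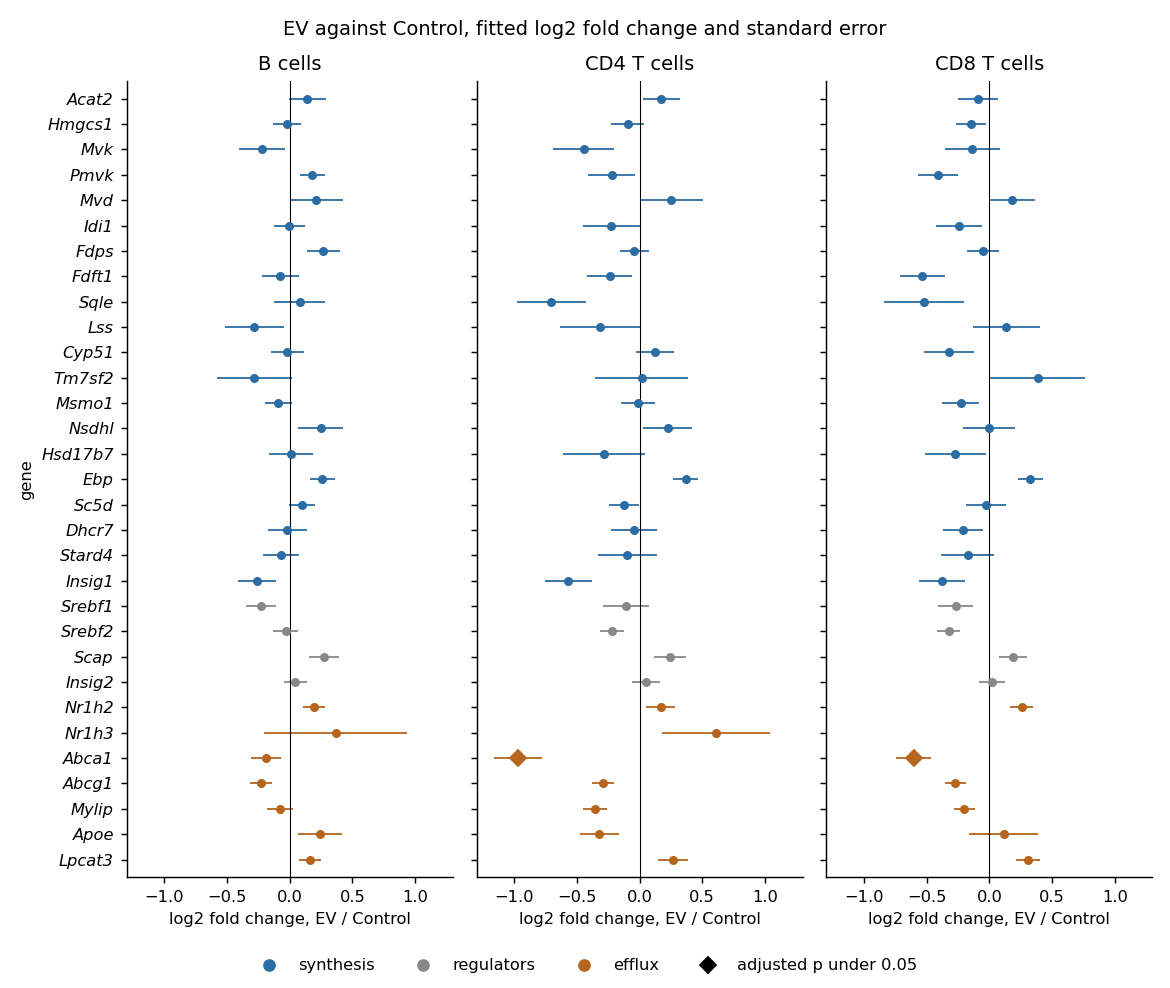
Log2 fold change (EV over Control) of each tested gene in B, CD4 T and CD8 T cells, coloured by role. Bars are 1 standard error, worked back from the edgeR test, and diamonds mark an adjusted p under 0.05. Abca1 is the only diamond, in the CD4 and CD8 panels. The synthesis genes spread on both sides of 0, with more of them below 0 than above in the CD4 and CD8 panels.

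Abcg1, the partner exporter that passes cholesterol to HDL, was lower in EV than Control in all 3 lymphocyte gates without a call. It was at 90.9 and 90.9 CPM in Control CD4 T cells and 73.2 and 75.1 CPM in EV (-0.29, SE 0.09, edgeR adjusted p = 0.136), at 87.8 and 92.4 CPM against 71.2 and 78.0 CPM in CD8 T cells (-0.27, SE 0.08, adjusted p = 0.114), and at 123 and 112 CPM against 102 and 98.7 CPM in B cells (-0.23, SE 0.09, adjusted p = 0.209). Its counts did not overlap between groups in any of these gates.

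Mylip, the LXR-induced ligase, was at 79.4 and 85.3 CPM in Control CD4 T cells and 63.0 and 65.8 CPM in EV (-0.36, SE 0.09, edgeR adjusted p = 0.0958). In CD8 T cells it was at 80.7 and 80.5 CPM in Control, with EV at 75.2 and 65.5 CPM (-0.20, SE 0.09, adjusted p = 0.250). In B cells it was at 254 and 229.6 CPM in the Controls, against 243 and 217 CPM in EV (-0.07, SE 0.10, adjusted p = 0.741), overlapping groups whose order turned without Control 1 or without EV 2. Abcg1 and Mylip thus stood on the same side as Abca1 in T cells, but only Abca1 passed the test.

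Lpcat3, which puts polyunsaturated chains into membrane phospholipids, stood on the other side. It was at 53.9 and 59.1 CPM in Control CD4 T cells and 59.7 and 76.0 CPM in EV (0.27, SE 0.12, edgeR adjusted p = 0.297), and at 50.5 and 45.6 CPM against 54.6 and 63.9 CPM in CD8 T cells (0.31, SE 0.10, adjusted p = 0.126). Nr1h2, the LXR found in most cells, was at 30.6 and 30.7 CPM in Control B cells and 34.3 and 35.9 CPM in EV B cells (0.20, adjusted p = 0.270). In the joint scaling of the T cell gates it was at 28.5 and 27.9 CPM in Control CD8 T cells, against 34.3 and 33.5 CPM in EV. In CD4 T cells it was at 28.2 and 24.6 CPM against 28.9 and 30.1 CPM. It was called in neither, with an unadjusted p under 0.05 (edgeR) in CD8 T cells only. Nr1h3, the LXR of macrophages, was at 0.358 to 2.29 CPM in B and CD4 T cells and too low to be tested in CD8 T cells. It also shares exon sequence with Gm13783. Apoe, which carries lipid out of the cell, was at 144 and 184 CPM in Control B cells and 231 and 158 CPM in EV B cells (0.24, SE 0.18, adjusted p = 0.496), with EV 1 highest and EV 2 inside the Control range, and the sign turned without EV 1.

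Groups that did not overlap were common among all genes, and these counts are a description with no test. In CD4 T cells 14 of 31 members had both EV libraries below both Controls and 6 had them above, against 25.2% and 24.2% of all genes. Among members in CD8 T cells, 14 of 30 were below and 5 above, against 25.3% and 24.4% of all genes. In B cells 8 of 31 were below and 7 above, against 26.2% and 25.6% of all genes. In each T cell gate 9 of the 20 synthesis genes were among the members below, and the gates share the same 4 libraries. The median of the 7 efflux genes was 0.16 in B cells, -0.29 in CD4 T cells and, over 6 genes, -0.04 in CD8 T cells.

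**Figure D3:**
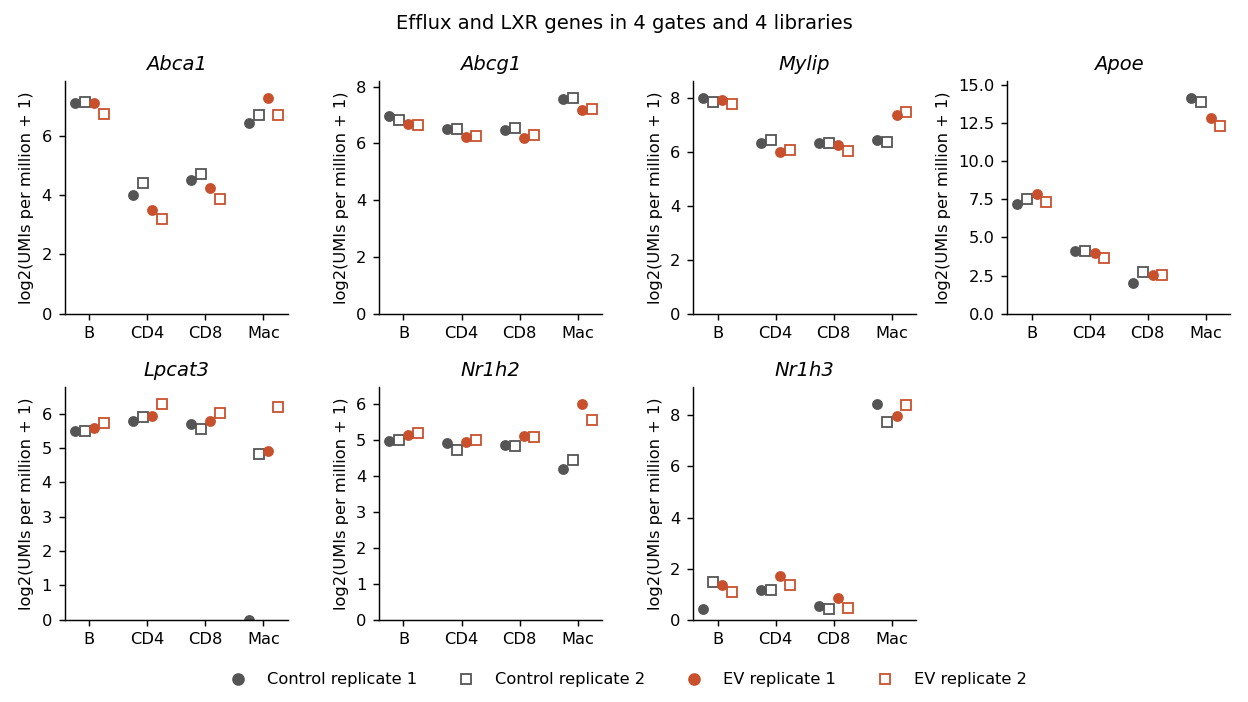
Level of the 7 efflux genes in each library, as log2(CPM + 1), in the 4 gates, with Control and EV replicates as separate symbols. Apoe and Nr1h3 stand highest in the macrophage gate, Abca1 and Mylip stand higher in B cells than in T cells, and EV symbols of Abca1 lie below Control symbols in both T cell gates.

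In the macrophage gate 7 members had enough UMIs to be tested, and none was called, as was none of the 3497 genes tested there (0%), of which 316 had an unadjusted p under 0.05 and DESeq2 called 2 higher and 4 lower. Apoe, the main lipid carrier that macrophages secrete, was at 17706 and 15214 CPM in Control, with EV at 7341 and 4926 CPM, from 1031, 2219, 1764 and 958 UMIs. Both EV libraries lay well below both Controls (log2 fold change -1.42, SE 0.20, edgeR adjusted p = 0.0711). DESeq2 called it (adjusted p = 1.09e-06), as did edgeR without Control 1, without Control 2 or without EV 1, but not without EV 2 (adjusted p = 0.0628). Mylip was at 85.9 and 82.3 CPM in the Controls, against 166 and 180.0 CPM in EV (1.04, SE 0.39, adjusted p = 0.469), from 5, 12, 40 and 35 UMIs.

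None of the other 5 members tested in that gate was called either. Nr1h3 was at 343 and 213 CPM in Control, with EV at 254 and 334 CPM (0.14, SE 0.36, edgeR adjusted p = 0.957). Abcg1 was at 189 and 192 CPM in the Controls, against 146 and 149 CPM in EV (-0.37, SE 0.34, adjusted p = 0.820), without overlap. Abca1 was at 85.9 and 103 CPM in Control, with EV at 154 and 103 CPM (0.41, SE 0.43, adjusted p = 0.854). Ebp was at 103 and 34.3 CPM in the Controls, against 45.8 and 56.6 CPM in EV (-0.17, SE 0.67, adjusted p = 0.981). Srebf2 was at 103 and 82.3 CPM in Control, with EV at 54.1 and 118 CPM (adjusted p = 0.985). Lss, the lanosterol synthase, was not tested and had no UMI in any of the 4 sums, which allows up to 42.8 CPM in Control 1 and 11.1 to 17.0 CPM in the others.

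The cells of the macrophage gate differed between the groups in more than Apoe. Before scaling, Apoe was at 14720 and 12537 CPM in Control, with EV at 6548 and 4533 CPM, the gating transcripts C1qa and C1qb together at 4497 and 3204 CPM against 3111 and 2077 CPM, and Apoe per C1q UMI at 3.27 and 3.91 against 2.11 and 2.18. The 6 B cell markers summed to 2370 and 2164 CPM in the Controls, against 4016 and 4320 CPM in EV, and 11.9% and 12.5% of Control cells but 22.0% and 23.9% of EV cells had a Cd79a UMI. The whole list of 9 macrophage markers summed to 7296 and 5062 CPM in Control, with EV at 5249 and 4022 CPM. C1qa and C1qb are among the 9 and define the gate, so this sum and the Apoe ratio are partly set by the gating. Of the same list, Cd5l was at 0 and 1 UMIs in Control and 44 and 22 in EV. The 4 monocyte markers summed to 28.6 and 831 CPM against 917 and 445 CPM. Marco, a scavenger receptor of macrophages, was at 457 and 282.5 CPM in the Controls, against 698 and 554 CPM in EV. A stricter gate left out cells with UMIs of Cd79a, Cd79b or Ms4a1 (B cell genes) or Cd3e, Cd3d, Cd3g or Trac (T cell genes). It kept 34 of 42, 58 of 80, 59 of 91 and 45 of 67 cells in Control 1, Control 2, EV 1 and EV 2. In the Controls the summed UMIs went from 70039 and 176991 to 50568 and 99550. In EV they went from 269393 and 211354 to 86040 and 86570. There the 6 B cell markers summed to 19.8 and 10.0 CPM in the Controls, against 23.2 and 34.7 CPM in EV. Apoe in the stricter gate was at 18431 and 17599 CPM in Control, with EV at 13575 and 6607 CPM (edgeR adjusted p = 0.890). Apoe per C1q UMI was then 3.40 and 4.18 in Control and 2.54 and 1.91 in EV. The part of the B cell transcripts and of the macrophage makeup in the Apoe values was not tested beyond this gate. Their part in the higher Mylip of EV is not given here.

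**Figure D4:**
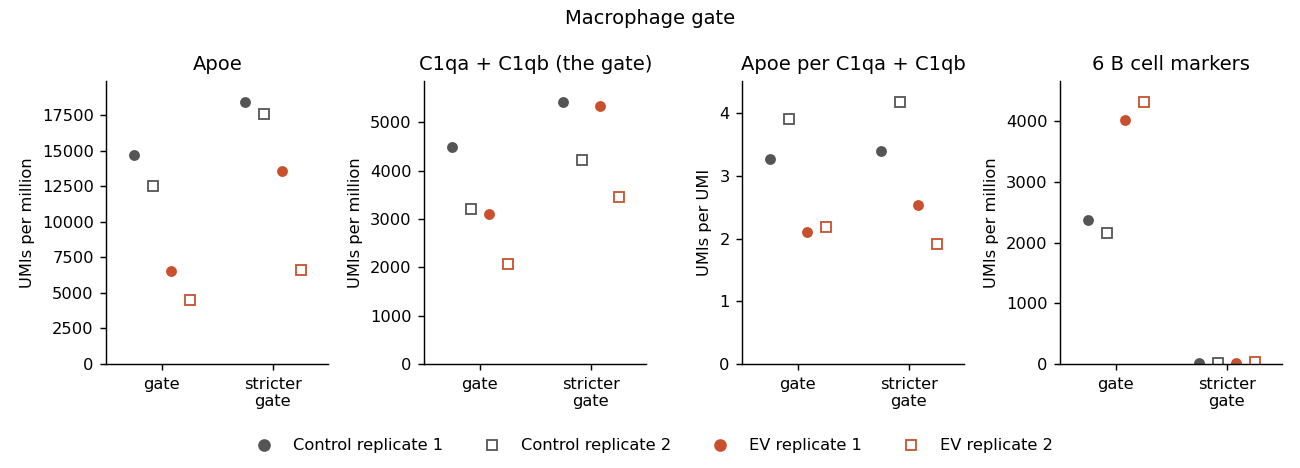
Apoe, the C1q gating transcripts, Apoe per C1q UMI and summed B cell markers in the macrophage gate and the stricter gate, per library (CPM before scaling; the ratio has no unit). EV symbols lie lower for Apoe and for the ratio in both gates, and higher for B cell markers, which are at only 10.0 to 34.7 CPM in the stricter gate.

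The EV effect on Apoe was 1.41 lower in the macrophage gate than in B cells on the log2 scale (log2 difference -1.41, SE 0.25, edgeR adjusted p = 6.82e-05), the only member called of 31, where 0.172% of all genes were called. It was not called without EV 1 (-1.44, adjusted p = 0.375), without EV 2 (-1.45, adjusted p = 0.0791), in the stricter gate (-0.99, adjusted p = 0.205) or with cells thinned to 1000 UMIs (-1.06, adjusted p = 1.0). The median of all genes in that difference was 0.19. Cells in both gates (5, 10, 20 and 16 in Control 1, Control 2, EV 1 and EV 2) counted on both sides, except in the stricter gate. Thinning left out cells under 1000 UMIs, and 24, 43, 61 and 44 cells of the macrophage gate remained. In the main fit the p-value gives no separate weight to the spread of Apoe between libraries.

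Apoe, Abca1 and Mylip were higher in B cells than in CD4 T cells. In that comparison, made within each library, 9 of 31 members were higher in B cells and 10 lower, close to the 33.5% and 33.3% of all genes. Apoe was at 143, 182, 226 and 155 CPM in B cells of Control 1, Control 2, EV 1 and EV 2 and at 16.2, 16.7, 15.0 and 11.7 CPM in CD4 T cells (log2 difference 3.55 with an SE of 0.10, adjusted p by edgeR = 2.33e-09). Abca1 was at 135, 140.5, 135 and 105 CPM in B cells and 15.3, 20.8, 10.5 and 8.36 CPM in CD4 T cells (3.23, SE 0.13, adjusted p = 2.64e-08). Mylip was at 252, 227, 238 and 213 CPM in B cells and 80.2, 86.5, 63.9 and 66.9 CPM in CD4 T cells (1.65, SE 0.07, adjusted p = 4.06e-08). No library of these 3 genes came near the other gate's range.

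Of the 20 synthesis genes, 8 were lower in B cells and 2, Pmvk and Hsd17b7, were higher, beside the 33.3% and 33.5% of all genes; the list was not tested. Dhcr7, which makes the last reduction to cholesterol, was at 6.60, 6.57, 6.25 and 6.64 CPM in B cells and 11.6, 11.4, 12.9 and 9.56 CPM in CD4 T cells (-0.79 with an SE of 0.11, adjusted p by edgeR = 0.000196). Mvd, the mevalonate diphosphate decarboxylase, was at 4.40, 3.36, 4.58 and 4.32 CPM in B cells and 6.28, 5.08, 5.55 and 7.85 CPM in CD4 T cells (-0.57, SE 0.14, adjusted p = 0.00623). Ebp was at 27.0, 29.0, 35.0 and 31.4 CPM in B cells and 36.2, 36.8, 49.7 and 45.0 CPM in CD4 T cells (-0.45, SE 0.05, adjusted p = 6.45e-05). On the efflux side 5 genes were higher in B cells (Apoe, Abca1, Mylip, Abcg1, Nr1h2) and Lpcat3 was lower, and of the regulators Srebf2 and Insig2 were higher and Scap was lower.

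Apoe, Nr1h3 and 9 synthesis genes were among the members lower in CD8 than in CD4 T cells. Of the 31 members 13 were lower in CD8 T cells, against 19.5% of all genes, and 2 were higher, against 19.6%. Of the 20 synthesis genes 9 were lower and none was higher, and the list was not tested. With DESeq2 or with cells thinned to 1000 UMIs, 6 members were lower and 1 higher, and the shares of all genes called there are not given here. Sqle was at 2.40, 2.99, 1.72 and 2.04 CPM in CD8 T cells and 7.26, 5.70, 4.72 and 3.29 CPM in CD4 T cells (-1.16 with an SE of 0.19, adjusted p by edgeR = 0.000300). Abca1 was higher in CD8 T cells, at 22.4, 26.1, 18.3 and 14.2 CPM against 14.7, 20.0, 10.1 and 8.02 CPM (0.61, SE 0.09, adjusted p = 0.000126), as was Srebf1 (0.40, SE 0.12, adjusted p = 0.0150), which encodes the SREBP of fatty acid synthesis and shares exon sequence with Mir6922. The Srebf1 call was lost without Control 2 (0.27, adjusted p = 0.134) or without EV 2 (0.32, adjusted p = 0.0887).

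The lower Apoe of CD8 T cells was a smaller difference in stricter gates, and was still called there. Apoe was at 3.17, 5.85, 4.94 and 5.03 CPM in CD8 T cells and 15.6, 16.0, 14.4 and 11.2 CPM in CD4 T cells (-1.58 with an SE of 0.15, adjusted p by edgeR = 2.00e-06), but between 0.710% and 1.54% of the CD4 gate's cells also had a C1qa or C1qb UMI. Without those cells and any with a UMI of Cd79a, Cd79b or Ms4a1, Apoe in CD4 T cells was at 5.07, 7.86, 4.38 and 4.69 CPM before scaling, against 16.2, 16.4, 14.5 and 11.5 CPM with them, and the difference between the gates was -0.54, still called. The stricter B cell gate instead dropped cells with a UMI of Cd3d, Cd3g, Trac, C1qa or C1qb. It left Apoe in B cells at 145, 179, 219 and 144 CPM before scaling. Nr1h3 was also lower in CD8 T cells (-1.61, SE 0.34, adjusted p = 0.00199), at no more than 0.807 CPM. In CD4 T cells it was at 1.19, 1.24, 2.24 and 1.55 CPM. It could be tested in 11 alternatives, against 13 for Apoe, and was called in all 11. The macrophage gate held 177 to 302 CPM of Nr1h3, and its level in CD4 T cells without C1q UMIs is not given here.

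Compared with B cells, the macrophage gate had far more Nr1h3 and Apoe and less Mylip, while the other 4 efflux genes were not called. In this comparison the median of all genes was -0.27. Of 31 members 3 were higher and 2 lower, no larger shares than the 14.7% and 15.7% of all genes. The p-values give no separate weight to a gene's own spread between libraries, and cells that lie in both gates count on both sides. Nr1h3 was at 249.5, 177, 240.3 and 302 CPM in the macrophage gate and 0.369, 1.82, 1.61 and 1.16 CPM in B cells (log2 difference 7.59, SE 0.31, edgeR adjusted p = 4.06e-131). Apoe was at 12863, 12703, 6949 and 4458 CPM in the macrophage gate and 148, 190, 236 and 160 CPM in B cells. The log2 difference was 5.54 (SE 0.16, edgeR adjusted p = 1.22e-255), and the EV libraries of the macrophage gate were lower than its Controls. Mylip was at 62.4, 68.7, 158 and 163 CPM in the macrophage gate and 262, 236, 249 and 220.2 CPM in B cells (-1.01, SE 0.22, adjusted p = 4.59e-05). Srebf2 was lower by 0.68 on the log2 scale (log2 difference -0.68, SE 0.25, edgeR adjusted p = 0.0293). It was called in 8 of 13 alternatives, with log2 differences from -2.18 to -0.52, the last without EV 1. For Mylip, called in all 13, they ran from -2.46 to -0.89. With a library left out, they stayed within -0.88 to -0.52 for Srebf2 and -1.29 to -0.89 for Mylip. The sizes of both thus depend on the setting. Mvd was higher (2.37, SE 0.63, adjusted p = 0.00101), at 12.5, 5.72, 27.6 and 41.9 CPM against 3.49 to 4.79 CPM, but from 1 UMI each in the Control libraries, and the call was lost without EV 2 (1.91, adjusted p = 0.107).

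Dividing B cells had higher levels of Fdps, Hmgcs1, Idi1 and Mvk, which are 4 of the 7 mevalonate enzymes, although with cells thinned to equal depth Fdps alone of these stayed called. Cells with a UMI of Mki67 or Top2a numbered 461 among the B cells, and within each library they were compared with the rest of the gate; 5 members were higher in them and 3 lower, against 9.24% and 4.75% of all genes. Fdps was at 12.6, 15.5, 16.8 and 16.5 CPM in non-cycling and 33.9, 48.2, 52.8 and 53.8 CPM in cycling B cells (1.63, SE 0.17, edgeR adjusted p = 8.66e-11), higher in every library by more than the spread between libraries. Idi1, which isomerises the isoprene unit, was at 11.5, 11.2, 10.1 and 11.6 CPM in non-cycling and 12.7, 24.9, 36.2 and 22.9 CPM in cycling cells (1.22, SE 0.23, adjusted p = 9.26e-05; 0.87 and 0.0607 without EV 1). Mvk, the mevalonate kinase, was at 4.85, 5.67, 4.85 and 4.46 CPM in non-cycling and 14.8, 14.9, 8.29 and 8.97 CPM in cycling cells (1.16, SE 0.35, adjusted p = 0.0185), a call lost without Control 1, Control 2 or EV 2 (adjusted p = 0.0603, 0.105 and 0.0685). The others called higher were Hmgcs1 (0.94, SE 0.20, adjusted p = 0.000490) and Apoe (0.43, SE 0.10, adjusted p = 0.00125), named after their values were seen. In all, 4 of 20 synthesis genes were called, all of them among the 7 mevalonate enzymes, with a median of 0.33 over the 20 against -0.03 over all genes, and 17 of the 20 lay above 0.

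The 3 members lower in cycling B cells were efflux genes. Abcg1 was at 124, 115, 104 and 100.5 CPM in non-cycling and 106, 78.1, 84.4 and 61.8 CPM in cycling cells (-0.44, SE 0.11, edgeR adjusted p = 0.00427). Mylip was at 257, 234, 248 and 219 CPM in non-cycling and 231, 171, 164 and 165 CPM in cycling cells (-0.42, SE 0.09, adjusted p = 0.000734). Abca1 was at 138, 144, 139.8 and 108 CPM in non-cycling and 127, 125, 104 and 81.8 CPM in cycling cells (-0.31, SE 0.10, adjusted p = 0.0367). All 3 genes were lower in cycling cells of every library. The calls were lost without EV 1 for Mylip (adjusted p = 0.0724), without Control 2 or EV 2 for Abcg1 (0.0619 and 0.0825) and without Control 2, EV 1 or EV 2 for Abca1 (0.100, 0.319 and 0.168). Cycling cells were deeper, with a median of 4887 to 6797 UMIs. With all cells thinned to 1000 UMIs only Fdps (1.76, edgeR adjusted p = 0.00189) and Mylip (-0.63, adjusted p = 0.0133) were still called. With the upper limits on genes and UMIs per cell lifted and a mitochondrial limit of 5%, 12 members were higher and 4 lower. The shares of all genes called in those 2 settings are not given here.

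**Figure D5:**
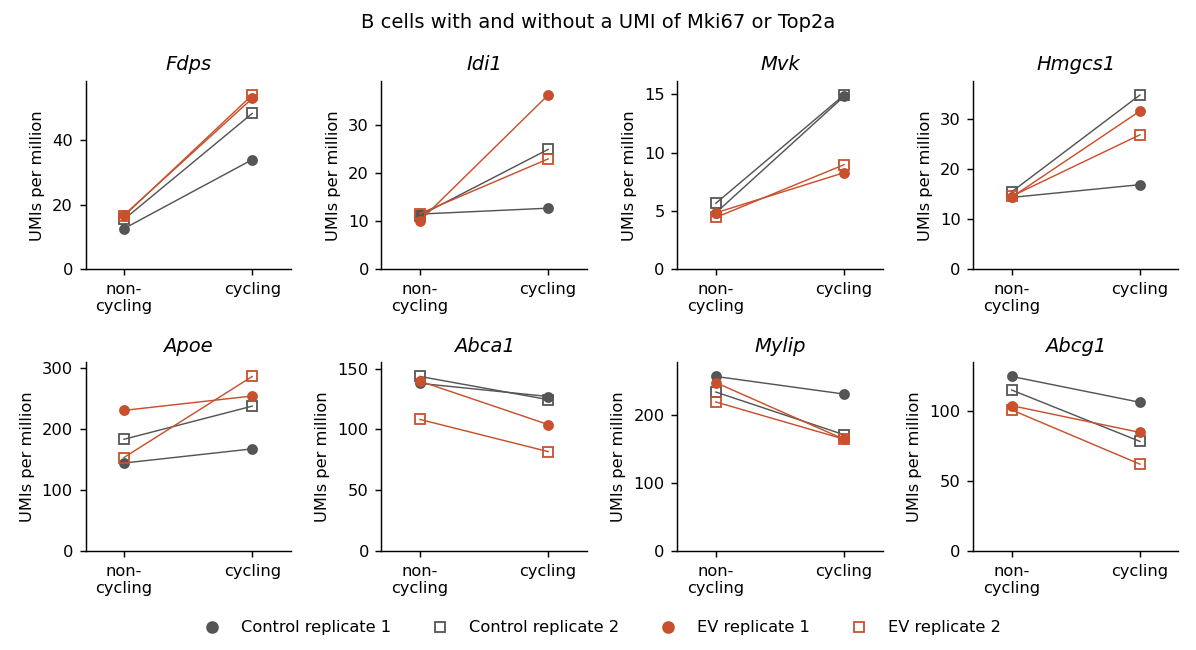
Level (CPM) of the 8 members called between cycling and non-cycling B cells, each library's pair of values joined by a line. Fdps, Idi1, Mvk, Hmgcs1 and Apoe rise from non-cycling to cycling in all 4 libraries, and Abcg1, Mylip and Abca1 fall in all 4.

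Dividing T cells, 509 cells of the CD4 and CD8 gates together, showed less. Ebp was at 34.6, 37.3, 47.5 and 42.6 CPM in non-cycling and 45.9, 41.9, 73.6 and 52.3 CPM in cycling T cells (0.38, SE 0.11, edgeR adjusted p = 0.0211) and was the only member called higher, against 7.1% of all genes. Mylip was at 83.6, 85.9, 72.2 and 67.7 CPM in non-cycling and 62.7, 62.2, 53.1 and 58.4 CPM in cycling cells (-0.38, SE 0.09, adjusted p = 0.00556) and was the only member called lower, against 4.22% of all genes. Ebp was called in 7 of 12 alternatives and Mylip in 10 of 12. Among these, Ebp lost its call without Control 1 (edgeR adjusted p = 0.0736) or EV 1 (0.150) and turned to -0.08 in thinned cells. Mylip lost it without Control 2 (0.0647) and in thinned cells (-0.12, adjusted p = 0.941). The cycling share of cells was 2.45% and 3.56% in Control and 3.58% and 2.88% in EV B cells, 4.41% and 4.19% against 5.42% and 5.60% in CD4 T cells, and 4.70% and 3.92% against 4.59% and 4.50% in CD8 T cells. With only the non-cycling cells kept, Abca1 in EV T cells was at an adjusted p of 0.0663 in CD4 and 0.0718 in CD8 T cells, with log2 fold changes of -0.94 and -0.59.

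Around these genes, 35 others of the pathway were followed: remaining enzymes, uptake, SREBP processing, lysosomal release, oxysterols and further LXR targets. With EV treatment 1 of 27 tested was called in B cells, none of 25 in CD4 T cells, 1 of 25 in CD8 T cells and none of 12 in the macrophage gate, where 2.55%, 1.09%, 2.2% and 0% of all genes were called. Pltp, the phospholipid transfer protein and an LXR target, was at 8.38 and 8.33 CPM in Control B cells and 14.4 and 14.3 CPM in EV B cells (0.78, SE 0.12, edgeR adjusted p = 0.0192), and its log2 fold change stayed at 0.78 to 0.79 without any library while the call was lost without Control 1 (adjusted p = 0.0778) or Control 2 (0.0679). With cells thinned to 1000 UMIs it was 0.32 (adjusted p = 0.594). Scd2, a fatty acid desaturase, was at 25.4 and 30.0 CPM in Control CD8 T cells and 19.8 and 18.4 CPM in EV CD8 T cells (-0.55, SE 0.12, adjusted p = 0.0341), and was not called without Control 2 (-0.41, adjusted p = 0.224).

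Between gates the calls among these other genes stand beside those over all genes. In B against CD4 T cells, where 33.5% of all genes were higher and 33.3% lower, 7 of 28 were higher (Scd1, Cyp27a1, Pltp, Soat1, Gpr183, Acaca, Rxrb) and 13 lower, among them the lysosomal genes Npc1, Npc2 and Lipa. In CD8 against CD4 T cells (19.6% and 19.5% of all genes) 4 of 25 were higher (Pltp, Scarb1, Acaca, Mbtps2) and 7 lower, including the oxysterol receptor gene Gpr183. In the macrophage gate against B cells (14.7% and 15.7%) 10 of 29 were higher, including the LXR partner Rxra, Lpl, Pltp, Npc1, Npc2 and Lipa, and 5 lower (Gpr183, Scd1, Mbtps2, Acaca, Ggps1). Cycling B cells (9.24% and 4.75%) had 3 of 27 lower, Gpr183 and Scd1 among them, and none higher, and cycling T cells (7.1% and 4.22%) 4 of 26 higher (Soat1, Rxra, Smpdl3a, Scd2) and 2 lower (Npc2, Gpr183).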

How the data were processed

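The data were 4 libraries (2 Control, 2 EV) of lymph node cells, made with the 10x 3′ v3.1 kit. The deposited values are raw UMI counts per gene and cell that the authors made with Cell Ranger 7.1.0 on mm10, without normalization. The methods call the libraries biological replicates, and the labels do not tie them to animals. The p-values rest on the spread between libraries, 2 per group, with each gene's spread drawn toward that of all genes in its fit. In the main fits of the macrophage gate against B cells this draw was complete. The p-values there match a normal distribution of the difference over its SE, so a gene's own spread had no separate weight. The p-values of all fits can therefore be smaller than a gene's own library values would give.

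Cells with 200 to 5000 genes, at most 20000 UMIs and under 10% mitochondrial UMIs were kept, and no doublet caller was run. The CD4 gate required Cd3e and Cd4 and the CD8 gate Cd3e and Cd8a, each without the other coreceptor and without Cd79a; the 2 other gates are given above. UMIs were summed per library and gate, since cells are not replicates, and tested two-sided with edgeR 4.0.16 (R 4.3.3; quasi-likelihood, TMM scaling, filterByExpr, Benjamini-Hochberg over all genes, calls at an adjusted p under 0.05). CPM are TMM-scaled within each fit except where given before scaling. Each SE was worked back from the edgeR test, as the absolute log2 difference over the square root of its F statistic. Comparisons of gates and of cycling cells had the library as a block, and differences of EV effects were interaction terms. Between 2 and 2 libraries an exact permutation test cannot go below p = 0.33, so none was used. Alternatives were DESeq2 1.42.0, other size factors, no filter, other cell limits, stricter gates, thinned cells, non-cycling cells only, a replicate block and each library left out. Of these steps, the edgeR fit of EV against Control was tested, on counts simulated from its own fitted means and spreads.

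The genes and lists were chosen with earlier results of these data known. Library values are printed for members called with EV, for the 3 synthesis and 3 efflux members of highest CPM per gate, and for up to 3 called members in each direction between gates or with cycling; others named were chosen after their values were seen. Poisson intervals and limits for counts of 0 (3 UMIs) cover counting error only.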

Additional observations from a re-analysis of the deposited data

Results flagged for a closer look

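The EV effect differed between cell types for 2 of the 31 genes, by a test of the difference itself. For Abca1 it was 0.75 higher in B cells than in CD4 T cells on the log2 scale with an SE of 0.15 (adjusted p by edgeR 0.0220). In CD4 T cells EV 1 and EV 2 were lower than either Control, while in B cells EV 1 lay inside the Control range in the scaling of B cells alone (138 CPM against 137 and 142 CPM) and just below it in the scaling of this comparison (134.7 CPM against 135.4 and 140.5 CPM). The difference was 0.52 without Control 2 (adjusted p = 0.239) and 0.52 to 0.92 over the 4 fits that each leave out a library. For Apoe the EV effect was lower in the macrophage gate than in B cells (log2 difference -1.41, SE 0.25, edgeR adjusted p = 6.82e-05), with both EV libraries of the macrophage gate below the Controls and with B cell marker transcripts at 4016 and 4320 CPM there against 2370 and 2164 CPM in Control. In a gate without cells that hold a UMI of Cd79a, Cd79b or Ms4a1 or of T cell genes, where the 6 B cell markers still summed to 10.0 to 34.7 CPM, the difference was -0.99 (adjusted p = 0.205), and with cells thinned to 1000 UMIs it was -1.06 (adjusted p = 1.0). Cells that lie in both the B cell and macrophage gates counted on both sides of the Apoe difference, except in the gate without such UMIs. Thinning left out cells under 1000 UMIs. Of the 42, 80, 91 and 67 cells of the macrophage gate, 24, 43, 61 and 44 remained in Control 1, Control 2, EV 1 and EV 2. No cause was tested for either gene.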

How the results depend on the processing

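Counts of members called moved by more than 1.5 times under several settings, and the cause was not tested. Beyond the replicate block and DESeq2 in the macrophage gate, the calls over all genes under these settings are not given here. Without them, the counts below cannot show whether the members moved apart from other genes. With EV treatment, B cells went from 0 to 1 without upper cell limits and at a mitochondrial limit of 5%, and ranged from 0 to 3 with a library left out. CD4 T cells went from 1 to 0 with DESeq2 or with non-cycling cells only and to 3 without filterByExpr or with the replicate block, and ranged from 0 to 8 with a library left out (8 without EV 1, 0 without Control 2). CD8 T cells went from 1 to 0 with DESeq2, thinned cells, other cell limits, stricter gates or non-cycling cells only, to 4 without filterByExpr and to 5 with the replicate block, and ranged from 0 to 5 with a library left out (5 without EV 1, 0 without Control 2). The macrophage gate went from 0 to 1 (Apoe) with DESeq2, DESeq2 size factors, no filterByExpr or the replicate block, and ranged from 0 to 1 with a library left out. The difference of EV effects between B and CD4 T cells went from 1 to 0 with DESeq2, thinned cells or other cell limits and to 2 without filterByExpr or with non-cycling cells only, and ranged from 0 to 2; that between the macrophage gate and B cells went from 1 to 0 with thinned cells or stricter gates, and ranged from 0 to 1. CD8 against CD4 T cells went from 15 to 7 with DESeq2 and with thinned cells. Cycling B cells went from 8 to 2 with thinned cells and 16 with other cell limits, and ranged from 4 to 7; cycling T cells went from 2 to 1 with DESeq2, 0 with thinned cells and 11 with other cell limits, and ranged from 1 to 2. The other comparisons (19 members called in B against CD4 T cells, 5 in the macrophage gate against B cells, none in CD8 against CD4 EV effects) stayed within 1.5 times under every setting run.

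The sign of a fold change that was not called turned for 6 results. With a library left out, the log2 fold change ranged from -0.055 (without EV 1) to 0.49 for Apoe in B cells, from -0.16 to 0.0055 (without EV 2; 0.0047 without Control 1) for Mylip in B cells, from -0.13 to 0.042 (without Control 2; 0.016 without EV 1) for Fdps in CD8 T cells, and in the macrophage gate from -1.01 to 0.56 (without Control 1) for Ebp and from -0.23 (without Control 2; -0.042 without EV 2) to 0.46 for Nr1h3. Fdps in CD8 T cells also turned with other cell limits (0.048), and in the macrophage gate Abcg1 turned with stricter gates (0.10) and Nr1h3 with thinned cells (-0.32). Ebp in cycling T cells, which was called, turned with thinned cells (-0.078).

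Libraries of the same replicate number deviated from their group means with correlations of 0.020 in B cells, 0.061 in CD4 T cells, 0.084 in CD8 T cells and 0.135 in the macrophage gate. With 2 pairs these values cannot show whether libraries of the same number belong together. With the replicate block, 559 genes were higher and 623 lower in B cells, 406 and 382 in CD4 T cells, 494 and 524 in CD8 T cells and 27 and 26 in the macrophage gate, against 208 and 130, 94 and 36, 165 and 105, and none without it. Depth limited the macrophage gate most: 1 UMI there is 3.71 to 14.3 CPM.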
